A study of Mus musculus with 2 samples.

Results

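Genes of glucose uptake, glycolysis, the pentose phosphate pathway and the hypoxia response were compared between mouse embryonic fibroblasts (MEFs) labelled Ahi1-/- and wild-type (WT) MEFs. The 55 genes were taken by symbol from a fixed list and all 55 were found among the 17260 genes of the deposited count table. Ahi1 encodes a protein of the base of the primary cilium. Messenger RNA was sequenced from 1 library of C57BL/6 MEFs with the genotype Ahi1-/- and from 1 library of C57BL/6 MEFs of the WT genotype, both prepared from embryos at day 13.5 and grown in DMEM with serum. MEFs are a mixed primary culture of connective tissue cells. The sources used here do not give the passage, the number of embryos or the exons removed from Ahi1. With 1 library per genotype there is no replicate check and no test. Each difference compares these libraries and not the genotypes, and the intervals cover counting error only.

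Glycolysis splits glucose into pyruvate through a chain of enzymes, most of which exist as several isozymes encoded by separate genes. The pentose phosphate pathway branches off after the hexokinase step and supplies NADPH and ribose. Under low oxygen the prolyl hydroxylases of the EGLN family stop marking the HIF alpha subunits for destruction by VHL, and HIF then raises many glycolytic genes together with genes of blood vessel growth, acid handling and mitophagy. In fibroblasts in culture, glycolysis runs at a high rate even in air.

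The libraries held 20820722 counts (labelled Ahi1-/-) and 19067487 counts (WT). Ahi1 itself had 370 counts in the library labelled Ahi1-/- and 410 in WT, and these nearly equal values leave the genotype label unchecked. The directions below rest on the labels and on reading the column heads EXP and CON as experimental and control. Defining fibroblast genes were abundant in both libraries, with all 12 of 12 markers detected. Their summed level was 23340 TPM in the library labelled Ahi1-/- and 11628 TPM in WT. Of the 12, 8 were at least 2-fold higher and 1 at least 2-fold lower in the library labelled Ahi1-/-. Summed levels of lists for other cells and states also differed, except the near equal endothelial sums. Skeletal muscle markers summed to 99.3 TPM in the library labelled Ahi1-/- and 9.23 in WT, and neural markers to 98.4 and 31.1. In the same order, adipocyte markers summed to 33.0 and 11.3 TPM, epithelial to 39.5 and 16.2, leukocyte to 49.8 and 32.1 and endothelial to 2.61 and 2.73. Among markers with at least 50 counts, 3 of 3 skeletal muscle and 4 of 4 epithelial ones were at least 2-fold higher. Neural markers went 2 higher and 1 lower, adipocyte 1 higher and 1 lower, and leukocyte 1 higher, 1 lower and 2 within 2-fold. No endothelial marker reached 50 counts. Among all genes with that minimum, 16.0% were higher and 10.3% lower. Cartilage markers were at least 2-fold lower in 11 of 12 cases (63.9 TPM summed in the library labelled Ahi1-/- and 1140 TPM in WT, with Cnmd at 0 in the library labelled Ahi1-/-). All 6 of 6 red blood cell markers with enough counts were lower (21.4 TPM under the Ahi1-/- label and 1370 in WT, with Hba-a2 and Hbb-y at 0 in the library labelled Ahi1-/-). All 8 of 8 smooth muscle and myofibroblast markers were higher (9753 TPM under the Ahi1-/- label and 407 in WT, none at 0), and 11 of 15 proliferation genes were lower (1176 TPM under the Ahi1-/- label and 2706 in WT, none at 0). The part of these shifts in the results below was not tested. In bulk RNA, fewer cells of a type and less RNA per cell cannot be told apart.

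As a set, the genes had the same median ratio as all genes. A gene was called higher or lower when its scaled counts differed 2-fold or more and it reached 50 counts in either library, which 52 members did. Of these, the library labelled Ahi1-/- had 8 (15.4%) higher and 7 (13.5%) lower, against 16.0% and 10.3% of all 12075 genes with the same minimum. The other 37 lay within 2-fold. A log2 ratio (library labelled Ahi1-/- over WT) below 0 was found for 28 members (53.8%), against 52.6% of all genes. The median log2 ratio of the 52 members was -0.04, the same as the -0.04 of all genes, and the quartiles were -0.66 and 0.47 for the members and -0.51 and 0.53 for all genes. These shares were near the background, so the numbers of members called say nothing particular about the set. What the data show is which isozymes and which steps differed.

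**Figure D1:**
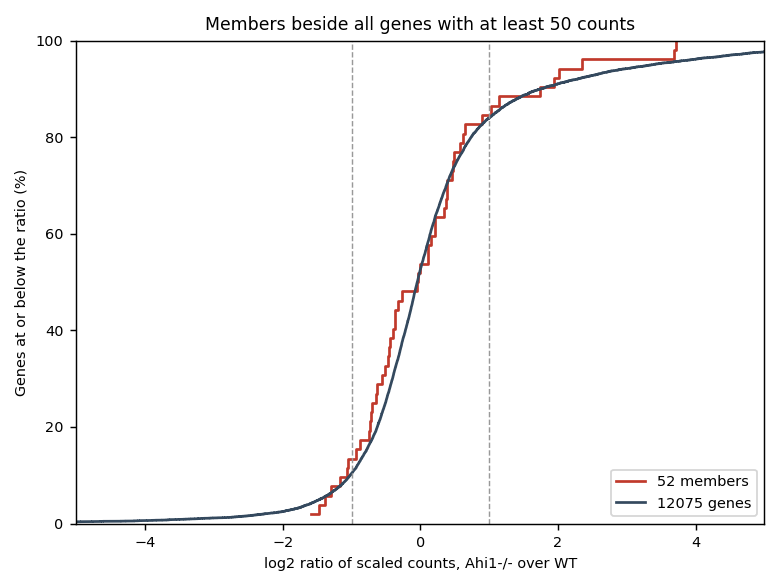
Cumulative share of genes (%, vertical axis) at or below each log2 ratio of scaled counts (library labelled Ahi1-/- over WT, horizontal axis), for the 52 members and for all 12075 genes that reached 50 counts in either library; dashed lines mark 2-fold. The curves run close together, with medians of -0.04 in both.

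The members spanned a wide range of levels. Per length, 8 of them exceeded 1000 TPM in both libraries, all enzymes from aldolase to lactate dehydrogenase, and 14 stayed under 20 TPM in both. Gapdh led with 8451 TPM in the library labelled Ahi1-/- and 8412 TPM in WT. Together the 17 glycolytic enzyme genes, lactate dehydrogenases included, made up 2.50% of all TPM in the library labelled Ahi1-/- and 2.80% in WT. Counting error was small beside these levels. The 95% counting interval of the log2 ratio included 0 for 4 of the 52 members, namely Pkm, Aldoc, Pdk2 and Pdk4.

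**Figure D2:**
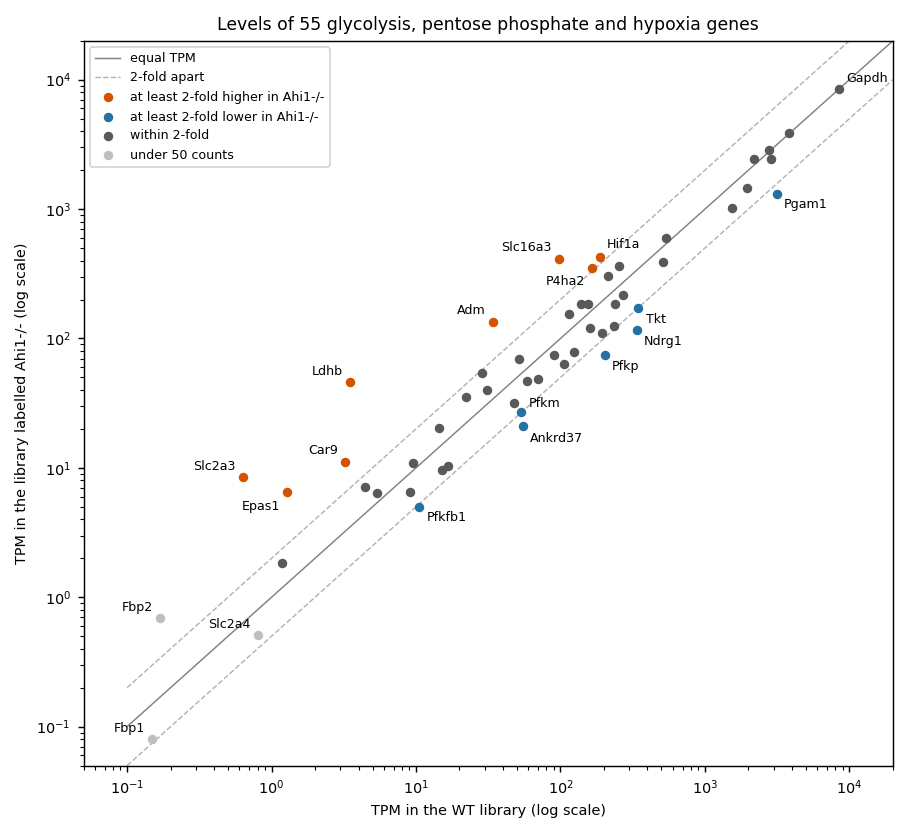
TPM of each of the 55 members in the library labelled Ahi1-/- (vertical, log scale) against WT (horizontal, log scale), coloured by the call on scaled counts. Among the members with enough counts, Slc2a3, Ldhb, Epas1, Slc16a3, Adm and Car9 lie farthest above the line of equal TPM, and Ndrg1, Pfkp, Ankrd37 and Pgam1 farthest below it.

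The summed level of the glucose and lactate transporters was higher. It was 831 TPM in the library labelled Ahi1-/- and 410 TPM in WT. Slc16a3, which encodes MCT4, the lactate exporter of highly glycolytic cells, had 8809 counts (413 TPM) in the library labelled Ahi1-/- and 2151 counts (97.9 TPM) in WT, 4.06-fold higher (log2 2.02, interval 1.95 to 2.09). Slc16a1, which encodes the broadly expressed lactate carrier MCT1, went slightly the other way with 1880 counts under the Ahi1-/- label and 2405 in WT (log2 -0.37, interval -0.46 to -0.28). The balance of the pair therefore differed more than either gene. Slc16a3 made up 89.8% of their joint TPM in the library labelled Ahi1-/- and 62.6% in WT, a log2 odds ratio of 2.39 (2.28 to 2.50) that does not depend on how the libraries are scaled.

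The main glucose transporter gene differed modestly and a minor paralogue strongly. Slc2a1, the basal carrier GLUT1, had 8335 counts in the library labelled Ahi1-/- and 5966 in WT, 1.38-fold higher (log2 0.47, 0.42 to 0.52). Slc2a3, the high-affinity carrier GLUT3 best known from neurons, had 306 counts under the Ahi1-/- label and 23 in WT, 13.2-fold higher (log2 3.72, 3.11 to 4.40). That was the largest ratio among the members with enough counts. At 8.53 TPM in the library labelled Ahi1-/- and 0.63 TPM in WT its share of the summed TPM of the 3 glucose transporters was 2.30% under the Ahi1-/- label and 0.25% in WT. Slc2a4, the insulin-responsive carrier of muscle and fat, was scarce with 13 counts under the Ahi1-/- label and 21 in WT, and its interval included 0 (log2 -1.82 to 0.36).

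At the entry of glycolysis the hexokinase balance leaned to Hk2 in the library labelled Ahi1-/-. Hk1, the housekeeping hexokinase, had 4162 counts in the library labelled Ahi1-/- and 5605 in WT (log2 -0.44, -0.50 to -0.38). Hk2, the inducible isozyme, had 2012 counts under the Ahi1-/- label and 1576 in WT (log2 0.34, 0.24 to 0.44). Hk2 thus supplied 24.9% of hexokinase TPM in the library labelled Ahi1-/- and 16.2% in WT, with a log2 odds ratio of 0.78 (0.67 to 0.89). Neither gene was 2-fold apart. Gpi1, the isomerase of the next step, had 15599 counts under the Ahi1-/- label and 14363 in WT (log2 0.11, 0.07 to 0.14).

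Phosphofructokinase, the committed step of glycolysis, had 2 of its 3 genes past 2-fold lower, and the ratio of the remaining gene was also below 0. Among all genes with at least 50 counts in either library, 10.3% were at least 2-fold lower and 52.6% had a ratio below 0. With 3 genes nothing is read from these counts. The 3 subunit genes summed to 287 TPM in the library labelled Ahi1-/- and 495 TPM in WT, 1.72-fold lower. Pfkp, the platelet-type subunit gene on chromosome 13 (assembly GRCm38.p6), had 2135 counts in the library labelled Ahi1-/- and 5878 in WT, 2.78-fold lower (log2 -1.47, -1.55 to -1.40). Pfkm, the muscle-type gene on chromosome 15, had 692 counts under the Ahi1-/- label and 1417 in WT, 2.07-fold lower (log2 -1.05, -1.18 to -0.91). Its interval reached inside 2-fold, and its log2 ratio was -0.99 with upper-quartile scaling and -0.87 with its chromosome's median subtracted, so its call rests on the threshold. Pfkl, the liver-type gene, had 6298 counts under the Ahi1-/- label and 8256 in WT (log2 -0.40, -0.45 to -0.36). The subunit mix differed with them. Pfkl made up 64.9% of the family's TPM in the library labelled Ahi1-/-, against 48.2% in WT, while Pfkp held 25.8% under the Ahi1-/- label and 40.9% in WT. The log2 odds ratio was -1.07 (-1.16 to -0.98) for Pfkp against Pfkl and -0.64 (-0.79 to -0.50) for Pfkm against Pfkl.

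**Figure D3:**
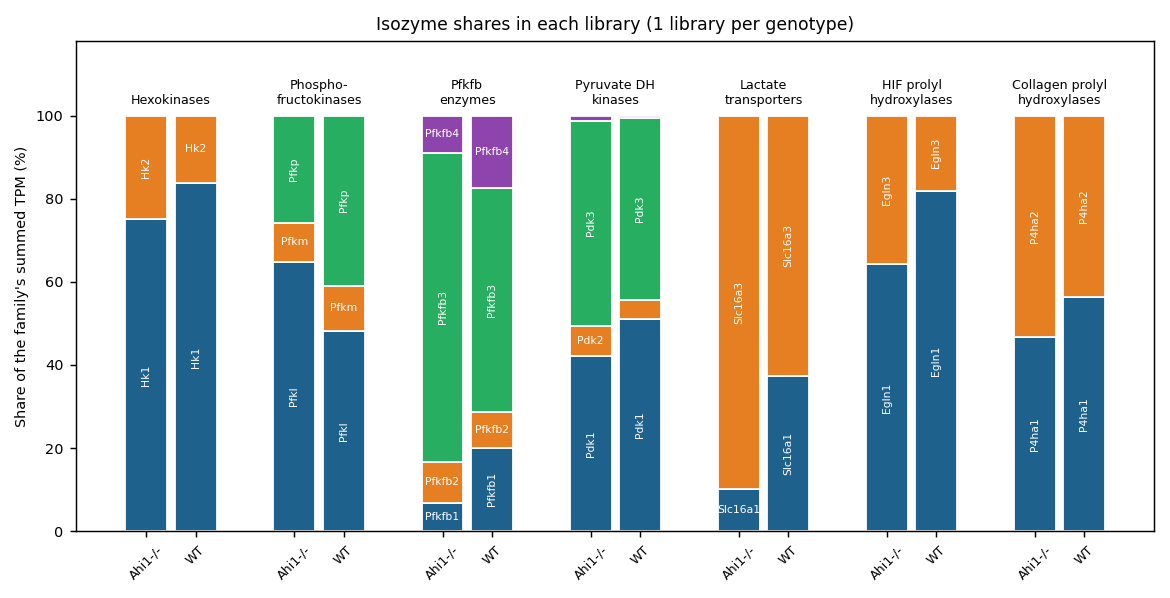
Share (%) of each isozyme in the summed TPM of the members of its family, with the library labelled Ahi1-/- left of WT in each pair of bars. Family genes outside the members are left out, such as Egln2 (55.5 TPM in the library labelled Ahi1-/- and 54.6 in WT). Pfkl, Pfkfb3, Slc16a3 and Egln3 take a larger share in the library labelled Ahi1-/- (64.9%, 74.5%, 89.8% and 35.7%) than in WT (48.2%, 54.1%, 62.6% and 18.1%).

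The Pfkfb genes encode bifunctional enzymes that make and remove the allosteric activator of phosphofructokinase. They split, with 1 of 4 lower and none past 2-fold higher, where 10.3% of all genes were lower and 16.0% higher. With 4 genes nothing is read from these counts. Pfkfb3, the isozyme with the highest kinase activity, had 2210 counts in the library labelled Ahi1-/- and 1182 in WT, 1.85-fold higher (log2 0.89, 0.79 to 0.99). With the median of chromosome 2 subtracted its log2 ratio was 1.03, just past the threshold. Pfkfb2, the heart-type gene, had 391 counts under the Ahi1-/- label and 248 in WT (log2 0.64, 0.41 to 0.88). Pfkfb1, the liver and muscle gene on chromosome X, had 83 counts under the Ahi1-/- label and 184 in WT, 2.24-fold lower (log2 -1.16, -1.55 to -0.78). Pfkfb4 had 206 counts under the Ahi1-/- label and 291 in WT (log2 -0.51, -0.78 to -0.25). Pfkfb3 was therefore 74.5% of the summed TPM of the 4 genes in the library labelled Ahi1-/- and 54.1% in WT, although the sum itself was small at 72.7 TPM under the Ahi1-/- label and 52.6 in WT. The log2 odds ratio of Pfkfb3 to Pfkfb4 was 1.40 (1.12 to 1.69).

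Along lower glycolysis several of the most abundant genes were close to equal. Gapdh had 99262 counts in the library labelled Ahi1-/- and 101017 in WT (log2 -0.04, -0.05 to -0.03). Eno1, the major enolase, had 60834 counts under the Ahi1-/- label and 62169 in WT (log2 -0.04, -0.06 to -0.03), and Pkm, pyruvate kinase, had 59589 under the Ahi1-/- label and 59152 in WT (log2 -0.00, -0.02 to 0.01). Aldoa, the major aldolase, had 32452 counts under the Ahi1-/- label and 29844 in WT (log2 0.11, 0.09 to 0.13). Against these, Tpi1, triose phosphate isomerase, had 14540 counts under the Ahi1-/- label and 22404 in WT, 1.55-fold lower (log2 -0.64, -0.67 to -0.61). Pgk1, the first ATP-making enzyme of the pathway, had 23740 counts under the Ahi1-/- label and 32449 in WT, 1.38-fold lower (log2 -0.46, -0.49 to -0.44). Pgam1, phosphoglycerate mutase, was the exception by size, with 21404 counts in the library labelled Ahi1-/- and 52402 in WT, 2.47-fold lower (log2 -1.30, -1.33 to -1.28).

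Pgam1 lies on chromosome 19, where the median log2 ratio of 430 genes was -0.66. With that median subtracted its log2 ratio was -0.64, inside 2-fold. Of the 55 members, 5 lie on chromosomes 8, 17 or 19, the chromosomes with the lowest medians (-0.40, -0.32 and -0.66). The part of the chromosome in any single gene's ratio was not tested. Minor isozymes of this stretch among the members were scarce. Aldoc, the brain-type aldolase, had 155 counts in the library labelled Ahi1-/- and 132 in WT (log2 0.22, -0.13 to 0.56). Eno2, the neuronal enolase, had 478 counts under the Ahi1-/- label and 338 in WT (log2 0.49, 0.28 to 0.69). Its share of the joint TPM of Eno1 and Eno2 was 0.53% under the Ahi1-/- label and 0.37% in WT. Eno3, an enolase gene outside the members, had 1005 counts under the Ahi1-/- label and 1143 in WT (log2 -0.20, -0.32 to -0.08). In deposited TPM its gap was wider, with 44.0 TPM under the Ahi1-/- label and 62.7 in WT (log2 -0.51).

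**Figure D4:**
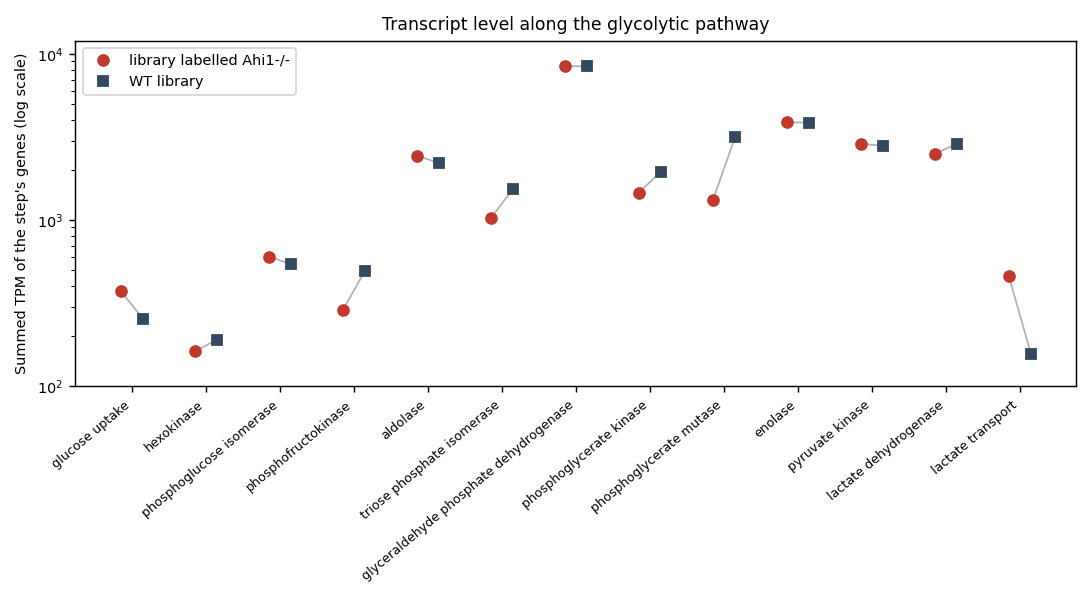
Summed TPM (log scale) of the members at each step from glucose uptake to lactate transport in the library labelled Ahi1-/- (circles) and in WT (squares). The largest gaps are at lactate transport (460 TPM under the Ahi1-/- label and 157 in WT), phosphoglycerate mutase (1313 TPM under the Ahi1-/- label and 3137 in WT) and phosphofructokinase (287 TPM under the Ahi1-/- label and 495 in WT), while glyceraldehyde phosphate dehydrogenase and enolase coincide.

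The 2 lactate dehydrogenase genes differed in opposite ways. Ldha, whose subunit favours making lactate, had 35397 counts in the library labelled Ahi1-/- and 42333 in WT, 1.21-fold lower (log2 -0.27, -0.29 to -0.25). Ldhb, the heart-type subunit that favours the reverse reaction, had 522 counts under the Ahi1-/- label and 40 in WT, 12.9-fold higher (log2 3.69, 3.23 to 4.20). In level, Ldhb was 45.9 TPM in the library labelled Ahi1-/- and 3.49 TPM in WT. Ldha was the bulk of the pair's TPM in both libraries, at 98.2% under the Ahi1-/- label and 99.9% in WT. The log2 odds ratio of Ldhb to Ldha was 3.96 (3.50 to 4.47), the largest of the 14 isozyme and paralogue pairs compared.

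Kinases that block pyruvate dehydrogenase, and so slow the use of pyruvate in the mitochondria, were within 2-fold. Pdk1, the HIF-responsive isozyme, had 2458 counts in the library labelled Ahi1-/- and 4101 in WT, 1.68-fold lower (log2 -0.75, -0.82 to -0.68). Pdk3 had 1369 counts under the Ahi1-/- label and 1706 in WT (log2 -0.33, -0.43 to -0.23). Pdk2 (222 counts under the Ahi1-/- label and 198 in WT) and the fasting-responsive Pdk4 (57 counts under the Ahi1-/- label and 38 in WT) had intervals that included 0. Summed over the 4 genes, the level was 151 TPM in the library labelled Ahi1-/- and 207 TPM in WT.

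Genes of the pentose phosphate pathway went in both directions. Tkt, transketolase of the non-oxidative branch, was the only one of the 7 past 2-fold, with 4982 counts in the library labelled Ahi1-/- and 10312 in WT, 2.09-fold lower (log2 -1.06, -1.11 to -1.01). It lies on chromosome 14, whose median was 0.04. Of all genes, 16.0% were at least 2-fold higher and 10.3% at least 2-fold lower. In the oxidative branch, G6pdx, the rate-limiting dehydrogenase that makes NADPH, had 1659 counts under the Ahi1-/- label and 2678 in WT, 1.63-fold lower (log2 -0.70, -0.79 to -0.61). Pgls, the lactonase of the next step, had 1668 counts under the Ahi1-/- label and 2123 in WT (log2 -0.36, -0.45 to -0.27), and with the median of chromosome 8 subtracted its log2 ratio was 0.04. Pgd, the second NADPH-making dehydrogenase, had 3655 counts under the Ahi1-/- label and 3134 in WT (log2 0.21, 0.14 to 0.28).

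The remaining non-oxidative genes were also split. Rpia, which isomerises ribose phosphate, had 162 counts in the library labelled Ahi1-/- and 267 in WT (log2 -0.73, -1.02 to -0.45). Rpe, the epimerase that acts beside it, had 792 counts under the Ahi1-/- label and 512 in WT (log2 0.62, 0.45 to 0.78). Taldo1, transaldolase, had 1726 counts under the Ahi1-/- label and 1308 in WT (log2 0.39, 0.28 to 0.49), so Rpe and Taldo1 were higher where Tkt and Rpia were lower. The 7 genes summed to 853 TPM in the library labelled Ahi1-/- and 1051 TPM in WT. The fructose bisphosphatases, which run the phosphofructokinase step backwards in gluconeogenesis, were near absent. Fbp1 had 1 count under the Ahi1-/- label and 2 in WT and Fbp2 had 8 under the Ahi1-/- label and 2 in WT, too few for a fold.

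**Figure D5:**
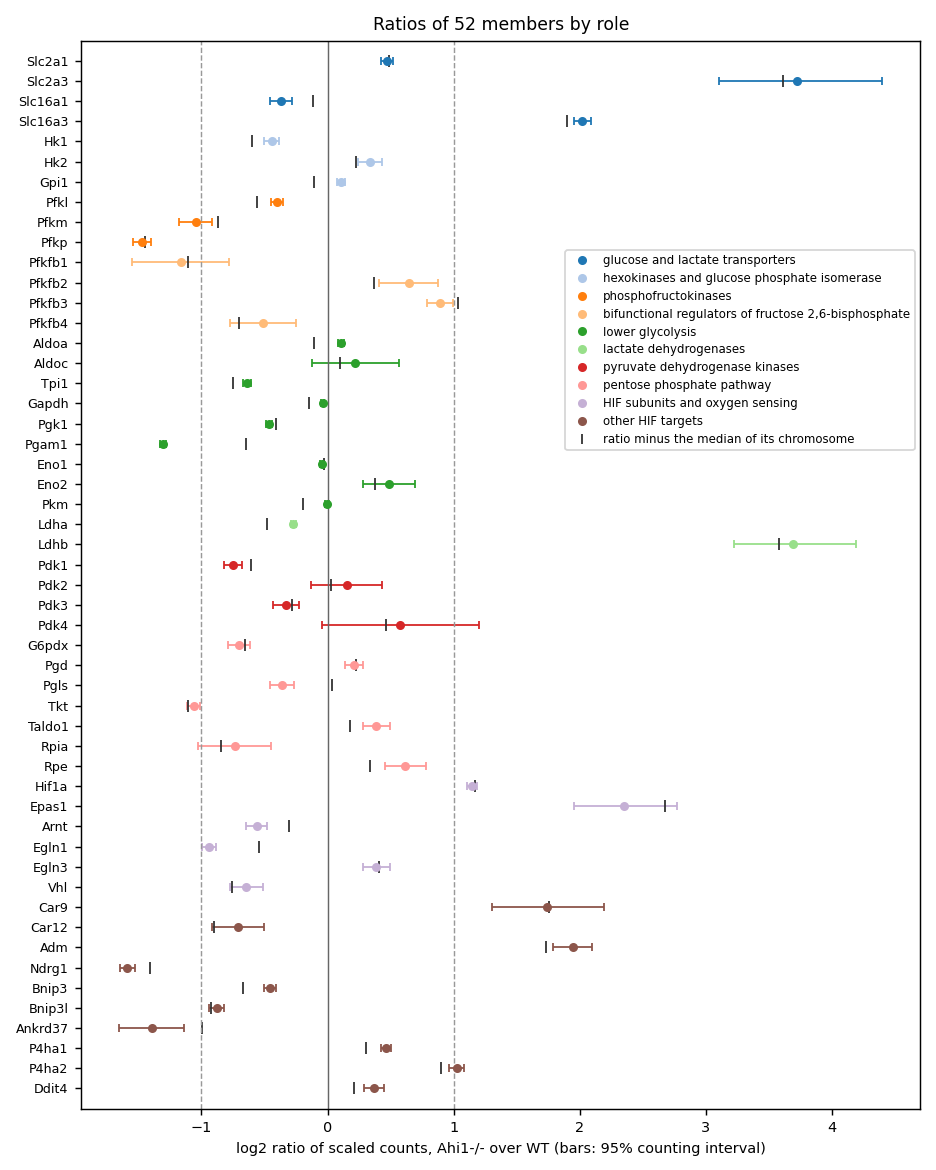
log2 ratio of scaled counts (library labelled Ahi1-/- over WT) of the 52 members that reached 50 counts in either library, by role; bars are 95% counting intervals, dashed lines mark 2-fold and vertical ticks show the ratio after the median of the gene's chromosome was subtracted. Ldhb and Slc2a3 lie near 3.7, Pgam1 moves from -1.30 to -0.64 with the chromosome median, and most other members stay within 2-fold.

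Transcripts of both HIF alpha subunits were more abundant in the library labelled Ahi1-/-. Hif1a, the broadly expressed subunit, had 16656 counts (426 TPM) in the library labelled Ahi1-/- and 7466 counts (186 TPM) in WT, 2.21-fold higher (log2 1.14, 1.11 to 1.18). Epas1, which encodes HIF-2 alpha, had 315 counts under the Ahi1-/- label and 61 in WT, 5.12-fold higher (log2 2.36, 1.96 to 2.78). It lies on chromosome 17, where genes were on balance lower, and with that median subtracted its log2 ratio was 2.68. Per length Hif1a made up 98.5% of the pair's TPM in the library labelled Ahi1-/- and 99.3% in WT. HIF alpha is controlled mainly through protein stability, which was not measured.

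The other 4 members that form or control HIF lay within 2-fold. Arnt, the constitutive dimer partner, had 1932 counts in the library labelled Ahi1-/- and 2829 in WT (log2 -0.56, -0.65 to -0.48). Vhl, which targets hydroxylated HIF for degradation, had 785 counts under the Ahi1-/- label and 1216 in WT, 1.56-fold lower (log2 -0.64, -0.78 to -0.51). Egln1, the main oxygen-sensing prolyl hydroxylase and itself a HIF target, had 4001 counts under the Ahi1-/- label and 7600 in WT, 1.92-fold lower (log2 -0.94, -0.99 to -0.88). On the authors' FPKM scale and with scaling by total counts Egln1 was past 2-fold (log2 -1.05 in each). FPKM ratios followed those of total counts (Pgam1 had -1.42 in each), so these are not separate checks. With the median of chromosome 8 subtracted the log2 ratio of Egln1 was -0.54. Egln3, the hydroxylase most strongly induced by hypoxia in other systems, had 1677 counts under the Ahi1-/- label and 1270 in WT (log2 0.39, 0.28 to 0.49). Egln3 accordingly formed 35.7% of the pair's TPM in the library labelled Ahi1-/- and 18.1% in WT, with a log2 odds ratio of 1.33 (1.21 to 1.45).

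Established HIF targets outside glucose metabolism went in both directions. Of 10, 3 were higher, 2 were lower and 5 lay within 2-fold, where the shares of all genes were 16.0% and 10.3%. With so few genes nothing is read from these counts. Their summed level was nearly equal in the libraries (1629 TPM in the library labelled Ahi1-/- and 1674 TPM in WT). Adm, which encodes the vasodilator peptide adrenomedullin, had 1658 counts in the library labelled Ahi1-/- and 427 in WT, 3.85-fold higher (log2 1.94, 1.79 to 2.10). Car9, the carbonic anhydrase used as a hypoxia marker, had 192 counts under the Ahi1-/- label and 57 in WT, 3.34-fold higher (log2 1.74, 1.31 to 2.19), at a low level of 11.2 TPM under the Ahi1-/- label and 3.23 in WT. P4ha2, a subunit of collagen prolyl hydroxylase, had 7096 counts under the Ahi1-/- label and 3460 in WT, 2.03-fold higher (log2 1.02, 0.96 to 1.08). That value sits at the threshold, and the log2 ratio was 0.91 with scaling by total counts and 0.90 with the chromosome median subtracted. Its paralogue P4ha1 had 11158 counts under the Ahi1-/- label and 8020 in WT (log2 0.46, 0.42 to 0.51).

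Other targets were lower. Ndrg1, a stress-responsive gene strongly induced by hypoxia, had 3006 counts (116 TPM) in the library labelled Ahi1-/- and 8954 counts (336 TPM) in WT, 3.01-fold lower (log2 -1.59, -1.65 to -1.53), the lowest ratio among the members. Ankrd37, a small HIF-1 target gene on chromosome 8, had 175 counts under the Ahi1-/- label and 455 in WT, 2.62-fold lower (log2 -1.39, -1.65 to -1.14). With the median of chromosome 8 subtracted it was -0.99, at the edge of 2-fold. The mitophagy receptors were lower without passing 2-fold. Bnip3l had 3192 counts in the library labelled Ahi1-/- and 5822 in WT (log2 -0.88, -0.94 to -0.82), and Bnip3 had 6067 under the Ahi1-/- label and 8258 in WT (log2 -0.46, -0.51 to -0.41). Car12, a second membrane carbonic anhydrase, had 319 counts under the Ahi1-/- label and 517 in WT (log2 -0.71, -0.92 to -0.51), in the opposite direction to Car9. Ddit4, an inhibitor of mTORC1, had 2775 counts under the Ahi1-/- label and 2132 in WT (log2 0.37, 0.29 to 0.45).

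Letters of the HIF binding core were present upstream of members that differed in either direction. RefSeq promoter windows (GRCm38.p6) were matched for 50 of the 55 members (not Slc2a3, Slc2a4, Epas1, Ndrg1 and Bnip3l), and the 250 bases before each annotated start were searched on both strands for ACGTG and GCGTG, the cores of the hypoxia response element. At least 1 match was found for all 6 of 6 higher members with a window, all 6 of 6 lower members and 30 of 36 members within 2-fold. A gene counted when any of its windows held a match. Over all members it was 43 of 50 (86.0%), with Fbp1 and Fbp2, under 50 counts, included. Among 9666 genes with at least 50 counts and a window it was 62.1%. Of all 32851 single windows 38.6% held a match, a measure per window that is unlike the shares per gene. The E-box CACGTG, which contains ACGTG on both strands, was found for 9 of 50 members (18%) and 9.98% of the 9666 genes. A match is only a description of the letters.

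The upstream windows of 2 higher genes (Slc16a3 and Adm) and 2 lower genes (Ankrd37 and Pfkp) are shown because genes with such cores stood on opposite sides of the comparison. They are written 5′ to 3′ along the gene, with the matches in capitals (CACGT and CACGC are the cores on the other strand).
Slc16a3, chr11:120948817-120949066, plus strand: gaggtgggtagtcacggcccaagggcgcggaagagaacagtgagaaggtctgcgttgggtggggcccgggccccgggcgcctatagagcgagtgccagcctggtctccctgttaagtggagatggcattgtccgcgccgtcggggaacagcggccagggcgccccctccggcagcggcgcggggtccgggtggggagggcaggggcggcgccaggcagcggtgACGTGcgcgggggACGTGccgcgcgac
Adm, chr7:110627407-110627656, plus strand: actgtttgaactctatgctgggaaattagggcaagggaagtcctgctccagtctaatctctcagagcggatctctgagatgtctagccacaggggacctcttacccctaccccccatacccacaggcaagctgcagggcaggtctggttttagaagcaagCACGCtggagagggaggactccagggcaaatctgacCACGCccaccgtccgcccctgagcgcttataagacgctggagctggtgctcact
Ankrd37, chr8:45999851-46000100, minus strand: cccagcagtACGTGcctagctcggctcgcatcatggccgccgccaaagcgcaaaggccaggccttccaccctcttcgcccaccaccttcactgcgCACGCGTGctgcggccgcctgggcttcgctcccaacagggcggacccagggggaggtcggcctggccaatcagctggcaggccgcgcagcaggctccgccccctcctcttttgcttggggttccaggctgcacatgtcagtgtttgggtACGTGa
Pfkp, chr13:6648772-6649021, minus strand: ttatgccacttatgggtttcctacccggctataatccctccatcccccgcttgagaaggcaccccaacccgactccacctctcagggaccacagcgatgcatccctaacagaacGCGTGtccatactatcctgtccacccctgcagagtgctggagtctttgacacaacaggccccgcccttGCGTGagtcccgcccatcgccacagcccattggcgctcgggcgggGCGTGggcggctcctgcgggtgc
Slc16a3 had both of its matches close to the start, at 27 and 14 bases before it. Adm had 2 matches of the second core on the other strand, Ankrd37 had 4 on both strands and Pfkp had 3. The lower genes shown thus held more matches (4 and 3) than the higher genes (2 each). The genes were picked for display, so the counts describe these 4 windows only.

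Other genes of the same pathways, listed by function, were counted in the same way. Of 19 further genes of glucose handling with at least 50 counts, 4 (21.1%) were higher, 0 lower and 15 within 2-fold, against 16.0% higher and 10.3% lower among all genes. The higher genes were Slc16a7, the lactate and pyruvate carrier MCT2 (187 counts in the library labelled Ahi1-/- and 5 in WT, log2 5.21, interval 3.96 to 6.85), Slc2a10, the carrier GLUT10 (562 counts under the Ahi1-/- label and 81 in WT, log2 2.78, 2.44 to 3.14), Slc2a13, an inositol carrier (166 under the Ahi1-/- label and 40 in WT, log2 2.04, 1.53 to 2.58), and Bpgm, bisphosphoglycerate mutase (1043 under the Ahi1-/- label and 378 in WT, log2 1.45, 1.28 to 1.62). Of 7 further pentose and ribose genes, 1 was higher and 0 were lower. It was Shpk, sedoheptulokinase (57 counts under the Ahi1-/- label and 18 in WT, log2 1.65, 0.86 to 2.50).

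Further genes of the hypoxia response went in both directions. Of 11 other HIF regulators with at least 50 counts, 1 (9.09%) was higher and 1 (9.09%) lower, against 16.0% and 10.3% of all genes. Arnt2, a paralogue of Arnt (528 counts in the library labelled Ahi1-/- and 197 in WT, log2 1.41, 1.17 to 1.65), was higher. Hif1an, which encodes the asparaginyl hydroxylase FIH (851 counts under the Ahi1-/- label and 2195 in WT, log2 -1.38), was lower. It lies on chromosome 19, and with that chromosome's median subtracted its log2 ratio was -0.72, inside 2-fold. Under scaling by total counts 2 of these regulators were lower. Among 43 HIF targets of a wider list, which also holds the member Pfkfb2, 7 (16.3%) were higher and 6 (14.0%) lower, shares near the background. Over the 46 targets with at least 10 counts in the libraries together the median log2 ratio was -0.09, against -0.01 for all genes with that minimum. Genes with large ratios among the 43 were Stc2, a stanniocalcin (686 counts under the Ahi1-/- label and 49 in WT, log2 3.79), Rora, a nuclear receptor (668 counts under the Ahi1-/- label and 52 in WT, log2 3.67), and Nos2, inducible nitric oxide synthase (297 counts under the Ahi1-/- label and 1681 in WT, log2 -2.51). Vegfa, the vascular growth factor and a standard HIF target that was named after its values were seen, had 6293 counts under the Ahi1-/- label and 5163 in WT (log2 0.27, 0.22 to 0.33).

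Expected count per TPM, which follows the isoform-weighted length of a gene, was shifted by over 1.1 times between the libraries in 0 of 49 members and in 2.85% of 10724 genes. Eno3, outside the members, was shifted 1.28 times. The second deposited table lists FPKM for 3872 genes, with no absolute log2 ratio under 1, so every gene in it was at least 2-fold apart on that scale. It holds 15 members, which are 14 of the 15 called here and Egln1, and it lacks P4ha2. Fractional counts, a sign of reads shared with other transcripts, were deposited for 20 members, Gapdh, Aldoa, Eno1 and Ldha among them. Gapdh, Aldoa, Eno1 and Ldha have near-identical copies in the genome, so their counts are uncertain by an amount that was not measured. Annotated relatives in the table were rare, with Eno1b at 18 counts in the library labelled Ahi1-/- and 20 in WT, Aldoart1 at 18 under the Ahi1-/- label and 44 in WT, and Gapdhs at 38 under the Ahi1-/- label and 40 in WT.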

How the data were processed

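RNA from 1 library per genotype (mouse embryonic fibroblasts, C57BL/6) was sequenced on DNBSEQ. The authors deposited expected counts (headed as read counts, partly fractional) and TPM, normalised for length and depth, for 17260 genes, and FPKM in a second table, per the file headers. Per the submitters' processing notes, the tools included RSEM 1.2.12, Bowtie2 2.2.5 and HISAT2 2.0.4 and the build was mm8, with no roles stated. No source used here gives the annotation, strand use or filters. All 6 value columns were used and 0 left out.

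For the ratios, deposited expected counts were made whole by rounding and then scaled with TMM (edgeR 4.0.16, R 4.3.3). The scaled ratio was given an exact Clopper-Pearson 95% interval from the share of both counts in 1 library, and isozyme balances an exact conditional interval of the odds ratio (scipy 1.17.1). A 0 was set to 3 counts in ratios. Medians of gene lists, and of the members under other settings, used genes with at least 10 counts over both libraries. The medians of the 52 members and of the 12075 genes used the minimum of 50 counts in either library. The calculation was tested on simulated data with known folds. No test or p-value is possible with 1 library per genotype, and replicates were not available to measure spread.

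Chromosomes came from assembly GRCm38.p6, matched by gene ID for 17210 genes. It is not the build of the notes, so the coordinates of the promoter windows belong to that assembly only.

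The members and gene lists were chosen with earlier results of these data known. The naming rule took every member, and from each list of other genes up to 4 called genes with the largest ratios, and 2 abundant ones from a list with none called. A gene that this rule names is not reported here. Alternatives covered scaling (DESeq2 1.42.0 size factors, total counts, upper quartile), deposited TPM or FPKM, count minimum, fold and chromosome medians.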

Additional observations from a re-analysis of the deposited data

How the results depend on the processing

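No paired analysis was possible because each genotype had 1 library, and no library could be left out. The numbers of members at least 2-fold higher ranged from 7 to 9 over the other settings that kept that fold, and those lower from 4 to 8. The number of lower members was 4 (7.69%) when chromosome medians were subtracted, against 8.46% of all genes. Pfkm, Pgam1 and Ankrd37 were then inside 2-fold. At 1.5-fold 15 members (28.8%) were lower, against 21.6% of all genes. The median log2 ratio of the members changed sign with the scaling, to 0.012 under upper-quartile scaling and 0.0050 on deposited TPM. Medians of role lists near 0 changed sign in the same way. Hexokinases with Gpi1 gave -0.0078 and the Pfkfb genes -0.048 under total counts. Lower glycolysis gave 0.015 and the other HIF targets 0.0077 under upper-quartile scaling, and 0.0067 and 0.0023 on deposited TPM. Scaling by total counts moved the median of all genes by -0.11. All 14 isozyme balances kept their direction on deposited TPM and stayed inside their counting intervals. Deposited TPM rests on the same counts, so this compares only the weighting by gene length and is not a separate check. Across scaling, FPKM and chromosome medians, calls of 9 gene and setting pairs differed, for Pfkm, Pfkfb3, Pgam1, Egln1, Ankrd37 and P4ha2, with the values given beside each gene. A minimum of 200 counts also left out Car9 and Pfkfb1, and asking for the whole interval beyond 2-fold left out Pfkm, Pfkfb1 and P4ha2. For genes with few counts in WT, such as Slc2a3 and Ldhb, depth limits the size of the ratio more than its direction.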

Other observations

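Lists beside the main pathways held a few further differences. Of 10 genes listed as MYC and ChREBP family regulators of glycolysis, 2 (20%) were higher and 0 lower, against 16.0% and 10.3% of all genes. They were Arrdc4 (563 counts in the library labelled Ahi1-/- and 7 in WT, log2 6.32, interval 5.26 to 7.64) and Txnip (3412 counts under the Ahi1-/- label and 1068 in WT, log2 1.66, 1.56 to 1.76). Both encode arrestin-family proteins that limit glucose uptake and respond to sugar phosphates through the MondoA and ChREBP factors. The genes of those factors were near equal or scarce, with Mlxip (MondoA) at 1425 counts in the library labelled Ahi1-/- and 1454 in WT and Mlxipl (ChREBP) at 0 under the Ahi1-/- label and 4 in WT. Their naming followed a look at the values.

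Glycogen metabolism had 1 of 14 genes higher (7.14%) and 1 lower (7.14%), under the 16.0% and 10.3% of all genes. Pygl, the liver glycogen phosphorylase, had 689 counts in the library labelled Ahi1-/- and 53 in WT (log2 3.69, 3.28 to 4.12), and Gbe1, the branching enzyme, had 486 under the Ahi1-/- label and 973 in WT (log2 -1.01, -1.17 to -0.86). The call of Gbe1 rests on the threshold: with upper-quartile scaling and on deposited TPM 0 glycogen genes were lower, and its log2 ratio was -0.97 on TPM and -0.87 with the chromosome median subtracted. Of 12 genes for the entry of pyruvate into mitochondria, 0 were higher and 1 was lower, Pcx, pyruvate carboxylase (520 counts under the Ahi1-/- label and 1722 in WT, log2 -1.74, -1.88 to -1.60), which lies on chromosome 19 and had a log2 ratio of -1.08 with that chromosome's median subtracted. Under scaling by total counts 3 genes of this list were lower.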
